A study of Mus musculus with 8 samples.

Results

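The genes described here are 35 genes of cholesterol and fatty acid synthesis, chosen by name, among the 50578 genes listed in the count table. Each of the 35 matched 1 row, and all 35 were among the 15154 genes with enough counts for a test. They comprise 5 regulators of the pathway (Srebf1, Srebf2, Scap, Insig1 and Insig2), 7 enzymes from acetyl-CoA to farnesyl diphosphate, 11 enzymes from squalene to cholesterol, 3 genes of sterol transport and 9 genes of fatty acid synthesis and desaturation. The list does not hold every step of either pathway.

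The study sequenced RNA of mouse embryonic fibroblasts (MEFs), primary connective tissue cells, to ask how far small molecules picked by a computational screen had moved them towards hepatocytes. Its 4 groups of 2 libraries each were control MEFs and MEFs given 10 µM of carbidopa, of LY-364947 or of CHIR-99021. All cells were wild type and came from mid-gestation C57BL/6J embryos after the head, tail, limbs and inner organs had been removed. They were at passage 3 to 5, and the compound was added 2 hours after plating and kept on through medium changes every 3 days. Carbidopa is a blocker of aromatic amino acid decarboxylase, LY-364947 blocks the type I receptor of TGF-beta, and CHIR-99021 blocks the kinase GSK3. The labels spell the second compound LY-364747 and call all treated cells hepatic-like. A duration of treatment is stated in the methods only for the real-time PCR experiment, not for the sequenced cells, and no vehicle for the control cells is given in the sources used here.

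Animal cells build cholesterol from acetyl-CoA through mevalonate, farnesyl diphosphate, squalene and lanosterol. The transcription factors SREBP1 and SREBP2, made by Srebf1 and Srebf2, are carried by Scap from the endoplasmic reticulum to the Golgi apparatus when sterols are scarce, are released there by cleavage, and switch on most enzymes of this route as well as those of fatty acid synthesis. INSIG proteins hold Scap back when sterols are plentiful, and liver X receptors, which sense oxysterols, switch on the exporters Abca1 and Abcg1. In the liver these routes feed lipoproteins and bile acids, whereas fibroblasts run them mainly for their own membranes.

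Total counts ran from 15039566 to 20504338 per library. Levels are given as counts per 1000000 counts of the library (CPM), with the total scaled by TMM, a normalization for library composition, and differences as log2 fold changes ± standard error. A gene is called higher or lower when the adjusted p of edgeR's quasi-likelihood test is under 0.05. Between replicates, counts differed by 34.6 times the chi-square value of sampling noise in the carbidopa pair and by 4.31 to 9.21 times in the other pairs. Carbidopa replicate 1 gave higher values for short transcripts and lower values for long ones than carbidopa replicate 2. The median log2 ratio was 0.322 for exon lengths under 1500 bp and -0.217 for 6000 bp or more. Gene positions are those of GENCODE M21 on mm10. The 15 macrophage markers summed to 1316 and 1355 CPM in control MEFs. Treated cells held less of them, 409 and 389 CPM after carbidopa, 289.7 and 299.6 CPM after LY-364947, 98.1 and 104 CPM after CHIR-99021. The defining markers Adgre1 and Csf1r were detected in every library. The 10 fibroblast markers came to 16157 and 16387 CPM in MEFs, and to between 5947 and 8203 CPM in treated cells, and 8 of the 10 were lower than in MEFs with each compound. Pdgfra was higher with all 3 (log2 0.49, 0.36 and 0.64 in the order carbidopa, LY-364947, CHIR-99021), Dcn was not called with carbidopa or LY-364947, and Pdgfrb was not called with CHIR-99021. Of 10 adipocyte markers, 6 (Adipoq, Plin1, Cidec, Lep, Cfd and Retn) stood at 3 counts or fewer in every library. Of the other 4, Pparg and Cebpa were not called in any comparison, and Lipe was higher than in MEFs with all 3 compounds (log2 1.01, 0.86 and 0.88 for carbidopa, LY-364947 and CHIR-99021). Fabp4 was lower than in MEFs with carbidopa and LY-364947 (log2 -2.12 and -2.38), and higher with CHIR-99021 than with either (log2 2.42 and 2.67). The 10 hepatocyte markers, Alb and Hnf4a among them, held 3 and 8 counts in all in MEFs and 21 to 31 in treated cells, too few for a test, so in the cells labelled hepatic-like these markers were at or near 0. These marker sums moved with the groups, and their part in the results on lipid genes was not tested. In bulk RNA, fewer cells of a type and less RNA per cell cannot be told apart.

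CHIR-99021-treated cells had lower levels of most cholesterol synthesis genes than control MEFs and than cells given either other compound. With carbidopa and LY-364947 the desaturase genes Scd1, Scd2, Fads1 and Fads2 were higher than in MEFs. Of the 18 cholesterol synthesis genes, 5 were lower with each of these compounds (27.8%, all genes 19.7% and 17.2%), not far from the background. Higher were 3 with carbidopa and 2 with LY-364947 (16.7% and 11.1%, all genes 18.0% and 13.7%). With CHIR-99021, 18 of the 35 genes were lower than in MEFs (51.4%), against 20.1% of all genes tested, and 2 were higher (Scap and Abcg1), against 18.7%. Compared with carbidopa, CHIR-99021 gave 22 lower (62.9%, all genes 8.08%) and 1 higher (Abcg1; all genes 6.62%). Compared with LY-364947, it likewise gave 22 lower (all genes 7.69%) and 1 higher (Abcg1; all genes 6.45%). Both CHIR-99021 libraries lay below all 6 others in 20 of the 35 genes, against 12.6% of all genes tested, and above all 6 in 1, against 12.0%. With CHIR-99021 the 35 genes had a median log2 fold change of -0.41 relative to MEFs, -0.62 relative to carbidopa and -0.61 relative to LY-364947, where the medians of all genes were 0.043, -0.001 and 0.006. Leaving out 1 library at a time kept every lower call relative to MEFs except that of Abca1. Some lower calls relative to carbidopa or to LY-364947 were lost under an omission, and these are given by gene below.

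With carbidopa, 9 genes were higher than in MEFs (25.7%, all genes 18.0%) and 9 lower (25.7%, all genes 19.7%), and the median was -0.06. With LY-364947, 8 were higher (22.9%, all genes 13.7%) and 7 lower (20.0%, all genes 17.2%), and the median was 0.04. The carbidopa counts fell to 4 higher and 3 lower without MEF replicate 1, and to 5 and 1 without MEF replicate 2. The LY-364947 count of lower genes ranged from 2, without MEF replicate 2 or LY-364947 replicate 2, through 4, without MEF replicate 1 or LY-364947 replicate 1, to 13 without either carbidopa library. The 3 comparisons with MEFs share the MEF libraries, so a MEF library moves all 3 together.

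None of the 35 genes was called between LY-364947 and carbidopa, where edgeR called 0.0132% of all genes higher and 0.0% lower. At an unadjusted p under 0.05, 1 of the 35 was higher and 1 lower, and DESeq2 called 0. The log2 differences ran from -0.30 (Pmvk) to 0.44 (Acaca), with standard errors of 0.09 to 0.24. Without carbidopa replicate 2, 8 of the genes were called higher and 3 lower, and no other omission gave a call. In the main fit all 9 fatty acid synthesis genes had a difference above 0, from 0.05 to 0.44. The 7 genes of the mevalonate steps had differences from -0.30 to about 0 (Hmgcs1). These directions did not all hold. The difference of Acss2 reached -0.10 under an alternative that kept all libraries. Under omission of 1 library that of Scd1 reached -0.01 and that of Pmvk 0.15. Over all genes the median of this difference was -0.209 for exon lengths under 1500 bp and 0.125 for 6000 bp or more, and the part of this trend in the values above was not tested.

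**Figure D1:**
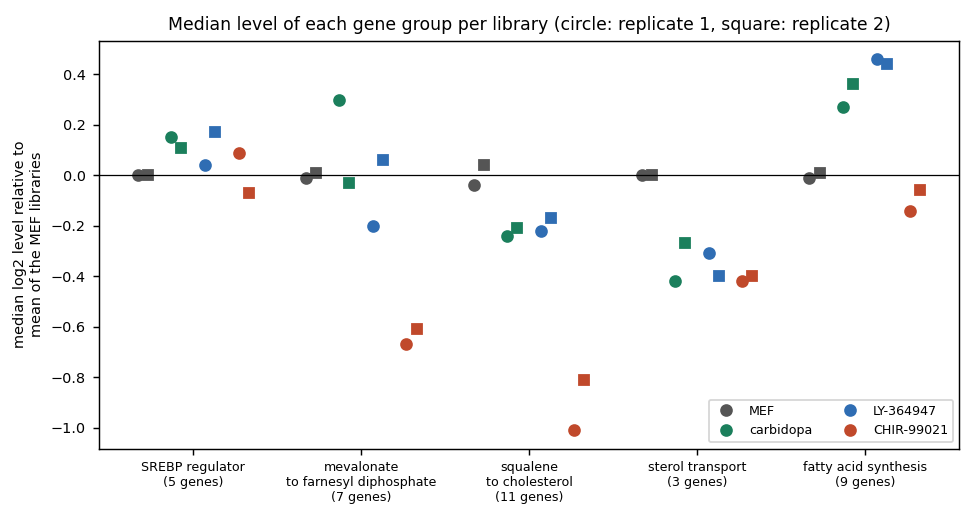
Median level of each of the 5 gene groups in every library, as log2 relative to the mean of both MEF libraries (circles replicate 1, squares replicate 2; n = 2 per group). The 11 genes from squalene to cholesterol lie at -1.01 and -0.81 in the CHIR-99021 libraries and between -0.24 and -0.17 in the other treated libraries, and the 9 fatty acid synthesis genes lie above the MEF level in the carbidopa and LY-364947 libraries and at -0.14 and -0.06 in the CHIR-99021 libraries.

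**Figure D2:**
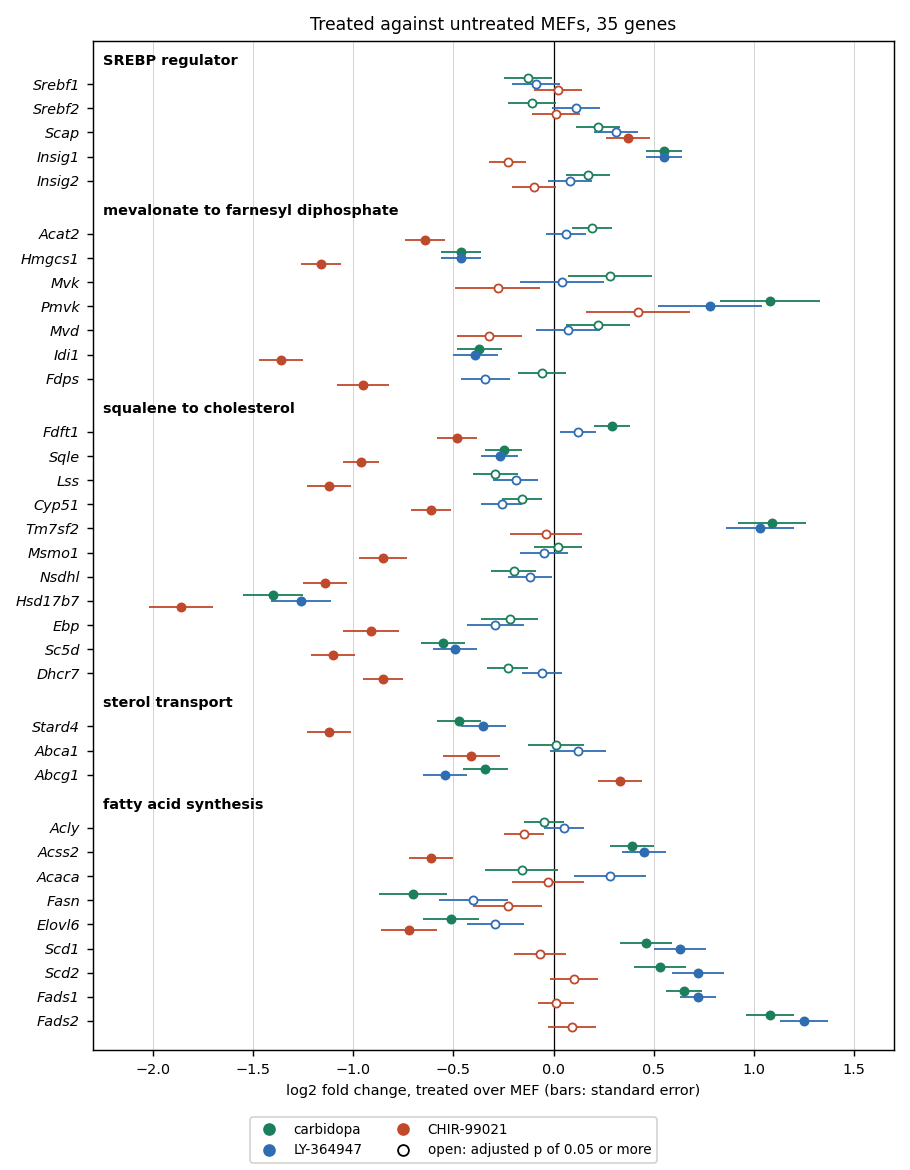
Log2 fold change of each of the 35 genes in treated cells over MEFs (points; bars, standard error from edgeR; n = 2 libraries per group), with filled points for adjusted p under 0.05. CHIR-99021 points lie left of 0 through most of the cholesterol route, and carbidopa and LY-364947 points lie close to each other, right of 0 for Scd1, Scd2, Fads1 and Fads2.

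Per kilobase of exon, the most abundant of the 35 transcripts in MEFs was Scd2, with a mean of 369 RPKM, that is, CPM divided by the kilobases of exon. Scd1 followed at 125 and 133 RPKM in the 2 libraries, and Hmgcs1 at 118 and 126 RPKM. These values overlap, so the order of Scd1 and Hmgcs1 is not set, and the same holds for Sc5d (98.5 and 107 RPKM) and Idi1 (98.3 and 105 RPKM). The regulators spanned 84.1 (Insig1), 28.0 (Srebf2), 14.3 (Insig2), 13.3 (Scap) and 12.0 RPKM (Srebf1) on average. The lowest of the 35 were Abcg1 at 6.15, Pmvk at 3.89, Acss2 at 2.72 and Tm7sf2 at 2.07 RPKM.

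The promoters of 3 genes that were lower with CHIR-99021 than in each other group are shown, because they allow the motifs of sterol control to be read: 150 bases before the start site from RefSeq (GRCm38.p6, the assembly of mm10), in the direction of the gene. They were taken where 1 start site is listed and no annotated exon lies in the stretch. Capitals mark the SRE core, searched as TCACNCCAC on either strand, and the CCAAT box, bound by NF-Y, which works beside SREBP, searched as CCAAT on either strand (ATTGG on the opposite one).
Hmgcs1, chr13:119690201-119690350, plus strand: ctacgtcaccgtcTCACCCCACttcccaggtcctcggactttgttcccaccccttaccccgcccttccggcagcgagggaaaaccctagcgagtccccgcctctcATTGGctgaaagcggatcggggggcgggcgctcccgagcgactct
Ebp, chrX:8193513-8193662, minus strand: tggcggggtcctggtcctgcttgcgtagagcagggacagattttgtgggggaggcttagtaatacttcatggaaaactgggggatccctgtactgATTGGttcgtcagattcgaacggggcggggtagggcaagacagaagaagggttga
Sc5d, chr9:42264301-42264450, minus strand: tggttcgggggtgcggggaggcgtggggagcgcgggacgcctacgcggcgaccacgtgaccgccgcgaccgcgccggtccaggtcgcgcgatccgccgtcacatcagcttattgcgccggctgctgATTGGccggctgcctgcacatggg
Hmgcs1 holds the SRE core 137 to 129 bases before its start site and CCAAT 45 to 41 bases before it. Ebp holds CCAAT 55 to 51 bases before its start site, and Sc5d 24 to 20. In windows of 250 bases before to 50 after the start, found for 27 of the 35 genes (all but Fdft1, Scd2, Stard4, Abcg1, Fads1, Sqle, Fdps and Scd1), the SRE core occurred in 1 gene (3.7%, against 1.44% of 27025 genes). CCAAT occurred in 21 of the 27 (77.8%), against 41.1% of 27025 genes. Abca1, Acaca, Acat2, Elovl6, Fads2 and Scap lacked it. These 27025 genes outnumber the 15154 tested, so both motif backgrounds include genes without enough counts for a test, unlike the 27. A match is only a match of letters, these motifs do not overlap each other in the stretches shown, and a window without one says nothing about the factor.

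Among the regulators, Insig1 alone was called between CHIR-99021 and the other compounds. Srebf2, which encodes the SREBP that mainly drives cholesterol synthesis (chr15:82147181-82205379, plus strand), had 206 and 196 CPM in MEFs, 167 and 206 after carbidopa, 206 and 226 after LY-364947 and 214 and 191 after CHIR-99021. Srebf1, for the SREBP of fatty acid synthesis (chr11:60199089-60222581, minus strand), had 66.3 and 68.98 CPM in MEFs, 64.2 and 59.1 after carbidopa, 59.8 and 67.5 after LY-364947 and 74.7 and 62.2 after CHIR-99021. The CHIR-99021 libraries spanned the MEF values in both genes, and neither gene was called in any of the 6 comparisons. With CHIR-99021 relative to MEFs the difference was 0.01 ± 0.12 for Srebf2 and 0.02 ± 0.12 for Srebf1.

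Insig1, itself a target of SREBP whose product holds the factor back (chr5:28071363-28078662, plus strand), had 254 and 266 CPM in MEFs, 376 and 385 after carbidopa, 386 and 377 after LY-364947 and 212 and 230.4 after CHIR-99021. The carbidopa and LY-364947 libraries stood above all others and the CHIR-99021 libraries below all others. Relative to MEFs the log2 fold change was 0.55 ± 0.09, adjusted p = 0.0012 with carbidopa, and 0.55 ± 0.09, adjusted p = 0.00123 with LY-364947. With CHIR-99021 it was -0.23 ± 0.09, adjusted p = 0.0735, which missed the threshold, whereas CHIR-99021 was lower than carbidopa (log2 -0.78 ± 0.09, adjusted p = 0.000502) and LY-364947 (log2 -0.78 ± 0.09, adjusted p = 0.000505). Insig2, the paralog, had 49.5 and 49.6 CPM in MEFs, 58.2 and 53.5 after carbidopa, 49.4 and 55.6 after LY-364947 and 43.8 and 48.6 after CHIR-99021, and was not called in any comparison. Scap, the escort of SREBP (chr9:110333288-110384950, plus strand), had 101 and 96.4 CPM in MEFs, 109.8 and 120.3 after carbidopa, 117 and 128 after LY-364947 and 137 and 119 after CHIR-99021. All 6 treated libraries lay above both MEF libraries, and the rise was called with CHIR-99021 (0.37 ± 0.11, adjusted p = 0.0211), a call that ended without either MEF library or without CHIR-99021 replicate 1 (log2 0.27 to 0.48 over the omissions). Of the exon sequence of Scap, 8.27% in words of 75 bases also occurs in other transcripts, the most in the neighbouring 5830462I19Rik. Part of these counts could therefore be assigned elsewhere.

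Enzymes of the mevalonate steps fell with CHIR-99021 at the entry and at the exit of the route. Mvk, Pmvk and Mvd, which act in between, did not pass the test relative to MEFs. Of the 7, Acat2, Hmgcs1, Idi1 and Fdps were lower than in MEFs, than with carbidopa and than with LY-364947, and Mvd was lower than with carbidopa only. Hmgcs1, the HMG-CoA synthase of the route, whose promoter above holds the SRE core (chr13:119690379-119708260, plus strand), had 539.9 and 577 CPM in MEFs, 414 and 397 after carbidopa, 413 and 397 after LY-364947 and 235 and 265 after CHIR-99021. The 3 levels do not overlap: MEFs were highest, carbidopa and LY-364947 lay together, and CHIR-99021 was lowest. Its log2 fold change relative to MEFs was -0.46 ± 0.10, adjusted p = 0.00506 with carbidopa, -0.46 ± 0.10, adjusted p = 0.00528 with LY-364947 and -1.16 ± 0.10, adjusted p = 1.08e-05 with CHIR-99021, the last 2.24-fold lower. Idi1, the isopentenyl diphosphate isomerase (chr13:8885501-8892451, plus strand), followed the same order, with 344 and 369.5 CPM in MEFs, 290.5 and 262 after carbidopa, 279 and 264 after LY-364947 and 129 and 150.4 after CHIR-99021. It was 2.56-fold lower with CHIR-99021 than in MEFs (log2 -1.36 ± 0.11, adjusted p = 7.42e-06). Other genes or pseudogenes share 23.6% of the 75-base words of Idi1, 33.9% of Acat2, 23.5% of Fdps and 9.79% of Hmgcs1. Part of these counts could therefore belong elsewhere.

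Fdps, which makes farnesyl diphosphate, had 159.7 and 153 CPM in MEFs and 83.2 and 77.9 after CHIR-99021 (-0.95 ± 0.13, adjusted p = 0.000206), with 168 and 132 after carbidopa and 118 and 129 after LY-364947. Acat2, the cytosolic thiolase of the first step, had 82.5 and 80.01 CPM in MEFs, 99.9 and 86.1 after carbidopa, 84.6 and 84.9 after LY-364947 and 51.2 and 53.4 after CHIR-99021 (-0.64 ± 0.10, adjusted p = 0.000909 for CHIR-99021 relative to MEFs). Neither was called with carbidopa or LY-364947. Pmvk, the phosphomevalonate kinase (chr3:89454541-89469013, plus strand), went the other way at a low level, with 6.62 and 6.71 CPM in MEFs, 17.9 and 10.3 after carbidopa, 10.8 and 12.1 after LY-364947 and 10.1 and 7.78 after CHIR-99021. All treated libraries exceeded both MEF libraries, but the carbidopa libraries were far apart, and carbidopa replicate 1 was the highest of the 8. The rise was called with carbidopa (1.08 ± 0.25, adjusted p = 0.00792) and LY-364947 (0.78 ± 0.26, adjusted p = 0.0424). The LY-364947 call ended on leaving out any library of the MEF, CHIR-99021 or LY-364947 groups (log2 0.70 to 0.86), and the carbidopa call without either MEF library (log2 0.63 to 1.42). Mvk, the mevalonate kinase, spanned 20.5 to 41.4 CPM over the 8 libraries and was not called. Mvd, the decarboxylase, had 50.9 and 40.03 CPM after carbidopa and 35.6 and 26.5 after CHIR-99021 (-0.55 ± 0.16, adjusted p = 0.0441), a call that was lost on leaving out any library except carbidopa replicate 2 or CHIR-99021 replicate 1, and in a fit of the compared groups alone (log2 -0.77 to -0.35 over the omissions). The falls of Hmgcs1 with carbidopa (without MEF replicate 2) and with LY-364947 (without MEF replicate 2 or LY-364947 replicate 2) lost their calls at log2 -0.51 to -0.42 over all omissions in both. Those of Idi1 lost theirs without either MEF library and, for LY-364947, without either of its own (log2 -0.44 to -0.30 and -0.45 to -0.35). The call of Fdps between CHIR-99021 and LY-364947 (-0.61 ± 0.13, adjusted p = 0.0101) was lost without either CHIR-99021 library or LY-364947 replicate 2 (log2 -0.68 to -0.54).

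From squalene to cholesterol the fall with CHIR-99021 took in 10 of 11 genes in each of the 3 comparisons (90.9%). The shares of all genes were 20.1% relative to MEFs, 8.08% relative to carbidopa and 7.69% relative to LY-364947. The medians of the 11 genes were -0.91, -0.70 and -0.69 in the same order. The exceptions were Tm7sf2 relative to MEFs, Hsd17b7 relative to carbidopa and Cyp51 relative to LY-364947. In all of these genes but Tm7sf2, both CHIR-99021 libraries lay below all 6 others, against 12.6% of all genes tested. With carbidopa, 3 of the 11 were lower than in MEFs (27.3%, all genes 19.7%) and 2 higher (18.2%, all genes 18.0%), and with LY-364947 3 were lower (27.3%, all genes 17.2%) and 1 higher (9.09%, all genes 13.7%), counts not far from the background. The 3 lower genes were Sqle, Hsd17b7 and Sc5d with both compounds.

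Lss, the lanosterol synthase that closes the sterol rings (chr10:76531588-76557138, plus strand), had 128 and 129.6 CPM in MEFs, 96.5 and 114 after carbidopa, 111 and 114 after LY-364947 and 57.9 and 60.99 after CHIR-99021. The CHIR-99021 values were 2.17-fold below MEFs (log2 -1.12 ± 0.11, adjusted p = 2.24e-05) and clear of all others. Nsdhl, a dehydrogenase that helps to strip methyl groups from lanosterol products (chrX:72918557-72958514, plus strand), had 130.2 and 146 CPM in MEFs, 115 and 125 after carbidopa, 129.8 and 124 after LY-364947 and 58.1 and 67.1 after CHIR-99021. With CHIR-99021 it was lower than in MEFs (log2 -1.14 ± 0.11, adjusted p = 2.58e-05), while with carbidopa and LY-364947 the differences of -0.20 ± 0.11 and -0.12 ± 0.11 did not pass the test.

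Hsd17b7, a keto-reductase of the same demethylation complex (chr1:169949535-169969241, minus strand), fell most of the 35 genes with CHIR-99021, and fell with the other compounds too. It had 223 and 255 CPM in MEFs, 76.8 and 105 after carbidopa, 102 and 97.3 after LY-364947 and 60.3 and 71.5 after CHIR-99021. Every treated library was at or below 105 CPM and both MEF libraries were at or above 223 CPM. The fold reductions were 2.63, 2.4 and 3.63 (log2 -1.40 ± 0.15, adjusted p = 5.85e-05 with carbidopa, -1.26 ± 0.15, adjusted p = 0.00012 with LY-364947 and -1.86 ± 0.16, adjusted p = 8.17e-06 with CHIR-99021). CHIR-99021 was lower than LY-364947 (log2 -0.60 ± 0.15, adjusted p = 0.0275), a call that ended on leaving out any library of the MEF, CHIR-99021 or LY-364947 groups (log2 -0.72 to -0.48).

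Sc5d, a desaturase near the end of the route (chr9:42251595-42264256, minus strand), stepped down in 2 stages: 479 and 523 CPM in MEFs, 318 and 365 after carbidopa, 369.7 and 344 after LY-364947 and 217 and 249 after CHIR-99021. Relative to MEFs the log2 fold changes were -0.55 ± 0.11, adjusted p = 0.00372 with carbidopa, -0.49 ± 0.11, adjusted p = 0.00785 with LY-364947 and -1.10 ± 0.11, adjusted p = 3.69e-05 with CHIR-99021. The carbidopa call ended without MEF replicate 2 and the LY-364947 call without MEF replicate 2 or LY-364947 replicate 2 (log2 -0.66 to -0.46 and -0.55 to -0.43). Those against CHIR-99021 ended without CHIR-99021 replicate 1 and, for LY-364947, without LY-364947 replicate 1 (log2 -0.65 to -0.44 relative to carbidopa and -0.71 to -0.52 relative to LY-364947).

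Tm7sf2, a sterol reductase (chr19:6062821-6068373, minus strand), was the exception of the group relative to MEFs. It was at 8.63 and 9.61 CPM in MEFs, 21.3 and 17.4 after carbidopa, 17.4 and 19.8 after LY-364947 and 9.903 and 7.83 after CHIR-99021. It was 2.12-fold higher with carbidopa (1.09 ± 0.17, adjusted p = 0.000716) and 2.04-fold higher with LY-364947 (1.03 ± 0.17, adjusted p = 0.00114) than in MEFs. The CHIR-99021 and MEF values overlapped (-0.04 ± 0.18). With CHIR-99021 Tm7sf2 was lower than with carbidopa (log2 -1.13 ± 0.17, adjusted p = 0.0019) and LY-364947 (log2 -1.07 ± 0.17, adjusted p = 0.00263). These were the largest falls of the 11 genes in those comparisons. Of the 75-base words of Tm7sf2, 8.83% lie in other genes as well, the most in the adjoining gene Vps51.

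The other 6 genes of this group were all lower with CHIR-99021 than in MEFs. Sqle, the squalene epoxidase, had 270.2 and 271 CPM in MEFs, 222 and 232 after carbidopa, 223 and 227 after LY-364947 and 135 and 143 after CHIR-99021 (-0.96 ± 0.09, adjusted p = 2.15e-05). Its falls with carbidopa (adjusted p = 0.04996) and LY-364947 (adjusted p = 0.0491) lie at the edge of the threshold and were lost on leaving out any library of the MEF, CHIR-99021 or LY-364947 groups (log2 -0.28 to -0.22 and -0.28 to -0.25). Fdft1, the squalene synthase, was slightly higher with carbidopa than in MEFs (0.29 ± 0.09, adjusted p = 0.0333), at 282 and 259 against 215 and 226 CPM, but DESeq2, another scaling and the same omissions ended that call (log2 0.23 to 0.36). With CHIR-99021 it was at 155 and 161 CPM (-0.48 ± 0.10, adjusted p = 0.00266), and 18.3% of its exon bases lie opposite Ctsb. Msmo1, a methyl oxidase, had 364 and 400.4 CPM in MEFs and 190.2 and 234 after CHIR-99021 (-0.85 ± 0.12, adjusted p = 0.000339). Ebp, a sterol isomerase, was at 37.8 and 38.1 CPM in MEFs against 18.7 and 21.7 after CHIR-99021 (-0.91 ± 0.14, adjusted p = 0.000563). Dhcr7, a reductase at the end of the route, was at 66.6 and 66.5 CPM in MEFs against 35.01 and 38.8 after CHIR-99021 (-0.85 ± 0.10, adjusted p = 8.92e-05). Cyp51, the lanosterol demethylase, fell least among the called genes besides Fdft1, from 362 and 374 to 235 and 248 CPM (-0.61 ± 0.10, adjusted p = 0.00111). Its difference from carbidopa (-0.45 ± 0.10, adjusted p = 0.0168) was lost without either CHIR-99021 library (log2 -0.55 to -0.34), and that from LY-364947 (-0.35 ± 0.10, adjusted p = 0.0514) did not pass the test. Ebp was no longer called against carbidopa without CHIR-99021 replicate 1, and against LY-364947 without that library or either LY-364947 library (log2 -0.84 to -0.51 and -0.73 to -0.52).

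**Figure D3:**
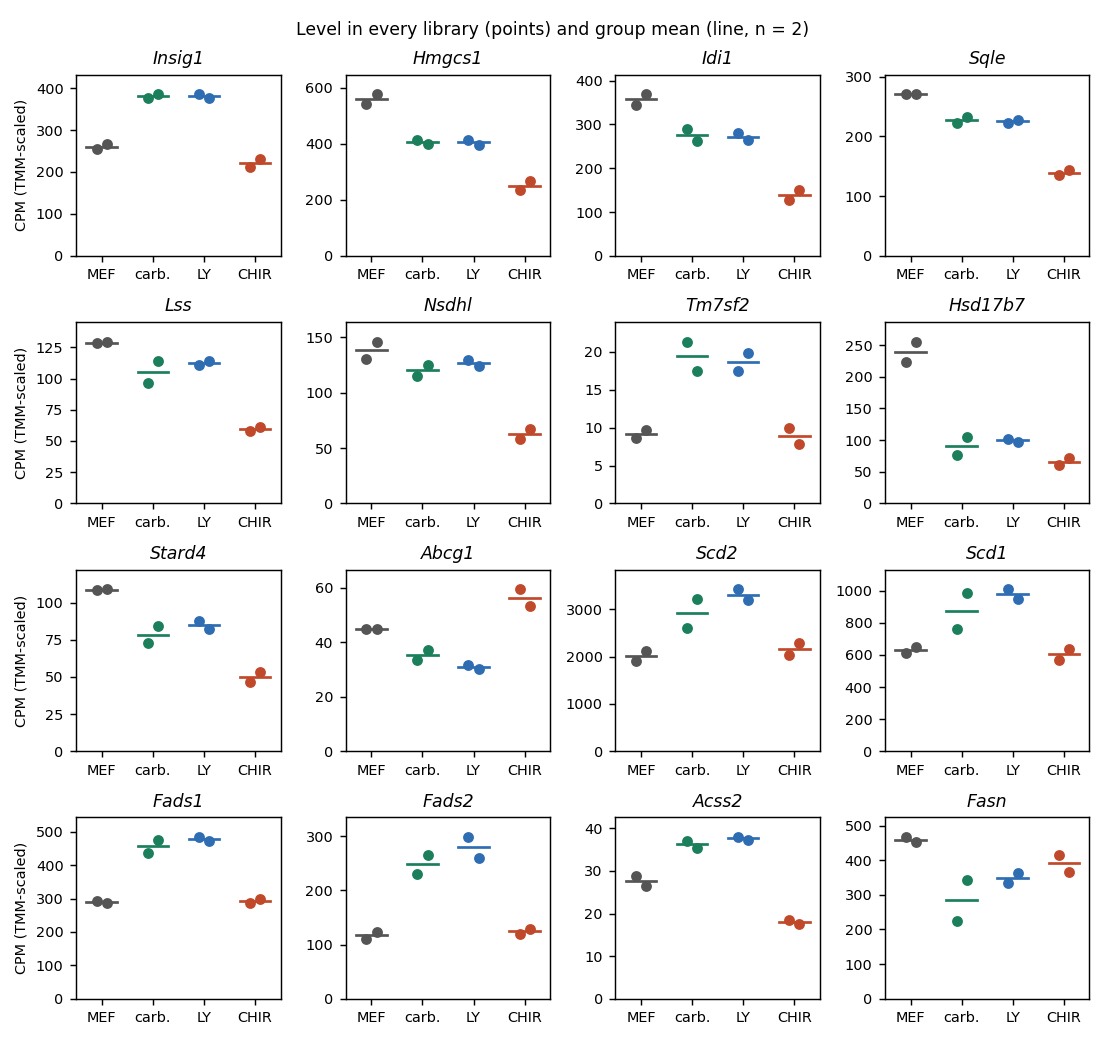
TMM-scaled CPM of 16 genes in every library (points) with the group mean (line; n = 2 per group; each axis starts at 0). Hmgcs1, Idi1, Sqle, Lss, Nsdhl and Stard4 are lowest in both CHIR-99021 libraries, Abcg1 is highest there, and Tm7sf2, Scd1, Scd2, Fads1 and Fads2 are higher with carbidopa and LY-364947 than in MEFs and CHIR-99021.

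Sterol transport genes divided with CHIR-99021. Stard4, a carrier that moves cholesterol between membranes inside the cell and a target of SREBP, had 108 and 109 CPM in MEFs, 72.9 and 83.97 after carbidopa, 87.9 and 82.2 after LY-364947 and 46.7 and 53.4 after CHIR-99021. It fell like Sc5d, in 2 stages, with log2 fold changes relative to MEFs of -0.47 ± 0.11, adjusted p = 0.00788 for carbidopa, -0.35 ± 0.11, adjusted p = 0.034 for LY-364947 and -1.12 ± 0.11, adjusted p = 3.06e-05 for CHIR-99021. The carbidopa and LY-364947 calls ended without either MEF library, the latter also without either of its own (log2 -0.58 to -0.37 and -0.40 to -0.31), and the call between CHIR-99021 and carbidopa without CHIR-99021 replicate 1 (log2 -0.74 to -0.54).

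Abcg1, which exports cholesterol to lipoproteins, was the only one of the 35 genes with both CHIR-99021 libraries above all others: 59.5 and 53.2 CPM, against 44.8 and 44.97 in MEFs, 33.6 and 37.3 after carbidopa and 31.5 and 30.2 after LY-364947. It was 1.83-fold higher with CHIR-99021 than with LY-364947 (0.87 ± 0.11, adjusted p = 0.000685) and 1.59-fold higher than with carbidopa (0.67 ± 0.11, adjusted p = 0.0027). Relative to MEFs the rise with CHIR-99021 (0.33 ± 0.11, adjusted p = 0.0346) was lost with DESeq2, with another scaling, without either MEF or LY-364947 library and without CHIR-99021 replicate 1 (log2 0.25 to 0.41). The fall with LY-364947 relative to MEFs was -0.54 ± 0.11, adjusted p = 0.00369, and that with carbidopa (-0.34 ± 0.11, adjusted p = 0.0314) was lost without either MEF or LY-364947 library and without carbidopa replicate 1 (log2 -0.42 to -0.27). Abca1, which exports cholesterol to apolipoproteins and like Abcg1 is a target of liver X receptors, did not follow it, with 282 and 296 CPM in MEFs, 245 and 336 after carbidopa, 325 and 304 after LY-364947 and 216 and 219 after CHIR-99021. It was lower with CHIR-99021 than in MEFs (-0.41 ± 0.14, adjusted p = 0.0376) and than with LY-364947 (-0.53 ± 0.14, adjusted p = 0.028), and both calls were lost on leaving out any library of the MEF, CHIR-99021 or LY-364947 groups (log2 -0.44 to -0.38 and -0.58 to -0.49). Macrophages are rich in both exporters, and the macrophage marker sums given above were lowest with CHIR-99021. Their part in the values of both genes was not tested.

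Fatty acid genes did not all move together. The 4 desaturases Scd1, Scd2, Fads1 and Fads2 and the acetyl-CoA synthetase Acss2 were higher than in MEFs with both carbidopa and LY-364947. These were 5 of 9 genes in each (55.6%, all genes 18.0% and 13.7%). The same 5 were lower with CHIR-99021 than with either compound (55.6%, all genes 8.08% and 7.69%). Acly, Acaca, Fasn and Elovl6, which supply or make the saturated chain, were not called higher in any comparison with MEFs. Fads2, the first desaturase of polyunsaturated fatty acids (chr19:10062765-10101746, minus strand), had 111 and 124 CPM in MEFs, 230.2 and 266 after carbidopa, 299 and 261 after LY-364947 and 120.3 and 129.7 after CHIR-99021. The carbidopa and LY-364947 libraries were at least 230.2 CPM and the other 4 at most 129.7 CPM. It was 2.11-fold higher with carbidopa (1.08 ± 0.12, adjusted p = 5.78e-05) and 2.38-fold with LY-364947 (1.25 ± 0.12, adjusted p = 2.04e-05) than in MEFs. Fads1, which acts later on the same chain and lies 81141 bases from Fads2 on chromosome 19, had 294 and 287 CPM in MEFs, 436 and 476 after carbidopa, 484 and 471 after LY-364947 and 286 and 299.5 after CHIR-99021, with log2 fold changes of 0.65 ± 0.09, adjusted p = 0.000413 for carbidopa and 0.72 ± 0.09, adjusted p = 0.00022 for LY-364947. Fads3, the remaining gene of that cluster, 2654 bases from Fads2 and not among the 35, fell with all 3 compounds, from 139 and 135 CPM in MEFs to 37.7 and 39.98 after carbidopa, 37.7 and 42.98 after LY-364947 and 45.3 and 36.6 after CHIR-99021 (log2 -1.82 ± 0.12, adjusted p = 1.87e-06, -1.76 ± 0.12, adjusted p = 2.39e-06 and -1.74 ± 0.12, adjusted p = 2.5e-06).

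Scd2, the more abundant of the stearoyl-CoA desaturases here, which make monounsaturated fatty acids, had 1914 and 2119 CPM in MEFs, 2612 and 3219 after carbidopa, 3428 and 3194 after LY-364947 and 2032 and 2286 after CHIR-99021. Scd1, 87590 bases away, had 613 and 652 CPM in MEFs, 760.1 and 984 after carbidopa, 1009.9 and 952 after LY-364947 and 569.5 and 637 after CHIR-99021. In both, the carbidopa and LY-364947 libraries lay above the other 4. With LY-364947 the log2 fold change relative to MEFs was 0.72 ± 0.13, adjusted p = 0.00149 for Scd2 and 0.63 ± 0.13, adjusted p = 0.00388 for Scd1, and with carbidopa 0.53 ± 0.13, adjusted p = 0.00788 for Scd2 and 0.46 ± 0.13, adjusted p = 0.0181 for Scd1. Scd1 lost its carbidopa call without either MEF library and its LY-364947 call without MEF replicate 1, and Scd2 its carbidopa call without MEF replicate 1 (log2 0.27 to 0.64, 0.59 to 0.68 and 0.37 to 0.68). Their calls between CHIR-99021 and LY-364947 ended without replicate 1 of either group (log2 -0.70 to -0.53 for Scd2 and -0.78 to -0.62 for Scd1). Those between CHIR-99021 and carbidopa ended without either MEF or CHIR-99021 library and, for Scd2, either LY-364947 library (log2 -0.57 to -0.27 for Scd2 and -0.70 to -0.33 for Scd1).

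Acss2, which turns acetate into acetyl-CoA (chr2:155517948-155585724, plus strand), rose with carbidopa and LY-364947 and fell with CHIR-99021. It had 28.9 and 26.5 CPM in MEFs, 37.1 and 35.5 after carbidopa, 38 and 37.4 after LY-364947 and 18.6 and 17.6 after CHIR-99021, and the 3 levels do not overlap. Relative to MEFs the log2 fold changes were 0.39 ± 0.11, adjusted p = 0.016 with carbidopa, 0.45 ± 0.11, adjusted p = 0.00945 with LY-364947 and -0.61 ± 0.11, adjusted p = 0.00171 with CHIR-99021, and CHIR-99021 was 2.08-fold below LY-364947 (-1.06 ± 0.11, adjusted p = 0.000224). The carbidopa call ended without either MEF library and with DESeq2, and the LY-364947 call without MEF replicate 2 or either LY-364947 library (log2 0.33 to 0.46 and 0.38 to 0.51).

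Acly, the other source of acetyl-CoA, lay between 401 and 472 CPM in all 8 libraries and was not called. Acaca, the carboxylase that makes malonyl-CoA, had 208 and 209.8 CPM in MEFs and 143 and 229.6 after carbidopa and was not called either. Other genes or pseudogenes share 26.8% of the 75-base words of Acaca, pseudogene Gm5182 the most. Fasn, the fatty acid synthase, had 467 and 452 CPM in MEFs, 224 and 343 after carbidopa, 333 and 364 after LY-364947 and 416 and 365 after CHIR-99021. All treated libraries were below both MEF libraries, and the fall was called with carbidopa (-0.70 ± 0.17, adjusted p = 0.00979), where the libraries differed most. The log2 fold change was -1.03 to -0.42 over the omissions, with the call lost without either MEF library. Elovl6, which lengthens the product of Fasn, was lower with carbidopa (-0.51 ± 0.14, adjusted p = 0.0155) and CHIR-99021 (-0.72 ± 0.14, adjusted p = 0.00237), with 176 and 192 CPM in MEFs, 110.3 and 148 after carbidopa, 157 and 144 after LY-364947 and 107 and 117 after CHIR-99021. Without either MEF library the carbidopa call of Elovl6 ended (log2 -0.74 to -0.31). Over all genes the median carbidopa change relative to MEFs was 0.265 for exon lengths under 1500 bp and -0.145 for 6000 bp or more. Fasn and Elovl6 hold 10947 and 6431 bp of exon. Their carbidopa calls stayed when offsets were adjusted for exon length, and how much of each fall follows the trend was not tested.

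**Figure D4:**
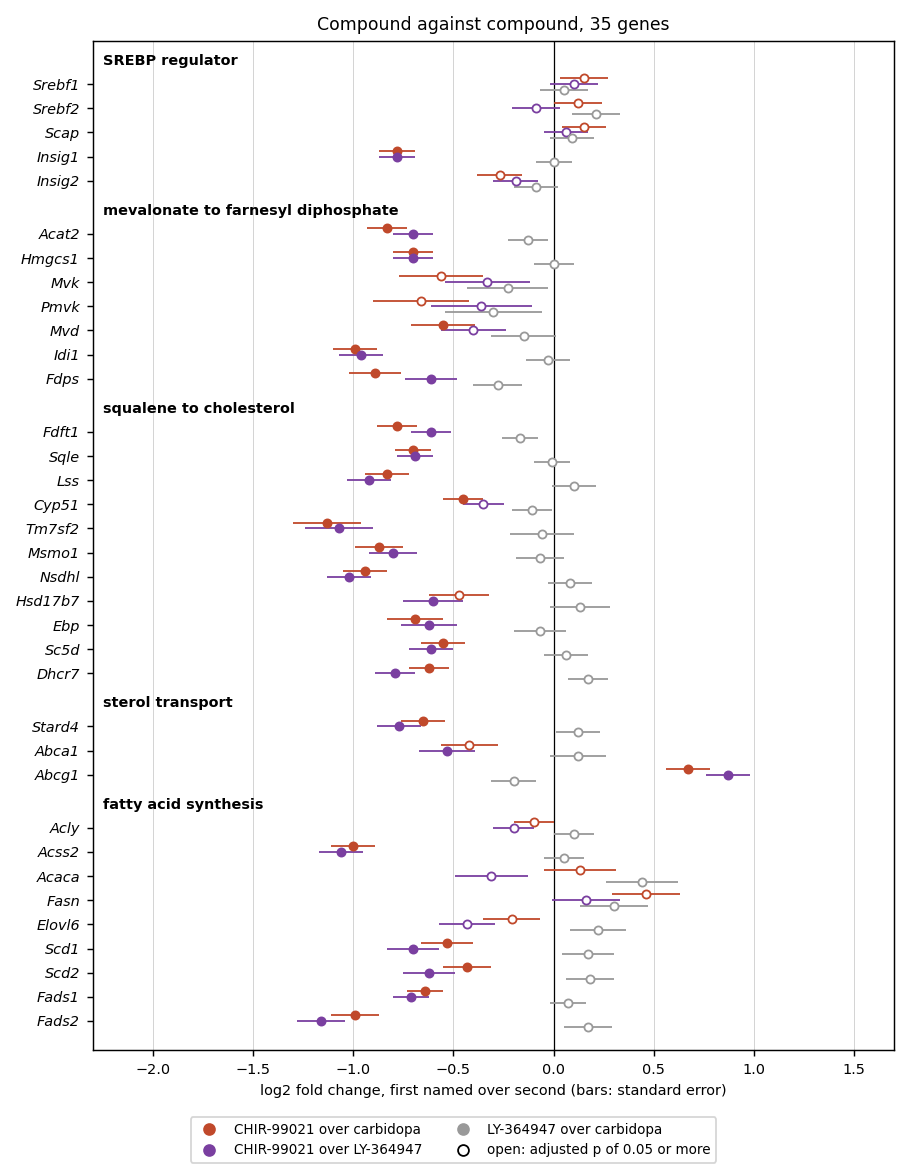
Log2 fold change of the 35 genes between compounds (points; bars, standard error from edgeR; n = 2 libraries per group), with filled points for adjusted p under 0.05. Both CHIR-99021 comparisons lie left of 0 for 29 and 31 of the 35 genes, Abcg1 lies right of 0, and no LY-364947 over carbidopa point is filled.

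Across the 35 genes, 14 were lower with CHIR-99021 than in MEFs, carbidopa and LY-364947 alike: Acat2, Hmgcs1, Idi1, Fdps, Fdft1, Sqle, Lss, Msmo1, Nsdhl, Ebp, Sc5d, Dhcr7, Stard4 and Acss2 (40.0%, against 3.81% of all genes tested). These comparisons share the CHIR-99021 libraries. All but Acss2 belong to sterol synthesis or transport. Another 6, namely Insig1, Tm7sf2, Scd1, Scd2, Fads1 and Fads2, were lower with CHIR-99021 than with both compounds. They were also higher with both compounds than in MEFs, and CHIR-99021 and MEFs were not called different (17.1% with all of these, all genes 0.831%). Neither joint pattern was among the planned results, so the shares beside them are descriptive only. Lower than MEFs with each of the 3 compounds were 6 genes (Hmgcs1, Idi1, Sqle, Hsd17b7, Sc5d and Stard4), 17.1% against 12.8% of all genes, in comparisons that share the MEF libraries. Hsd17b7 alone of these kept all 3 calls under every omission of 1 library. In the sets of 14 and 6 named before, Fdps, Ebp, Sc5d, Stard4, Scd1 and Scd2 lost a call under some omission. Srebf1, Srebf2, Insig2, Mvk, Acly and Acaca were called in no comparison (17.1%, all genes 45.2%).

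Of 62 genes listed as partners in these pathways, 60 could be tested. Relative to MEFs, carbidopa gave 9 higher and 13 lower (15% and 21.7%, all genes 18.0% and 19.7%), LY-364947 6 higher and 12 lower (10.0% and 20.0%, all genes 13.7% and 17.2%), and CHIR-99021 7 higher and 16 lower (11.7% and 26.7%, all genes 18.7% and 20.1%). As a list the partner genes thus lay near or below the share of all genes in most of these counts. The carbidopa count of lower genes fell to 8 without either MEF library, the LY-364947 count of higher genes rose to 13 without either carbidopa library, and the CHIR-99021 count of lower genes fell to 8 without MEF replicate 2 or CHIR-99021 replicate 1. Compared with carbidopa, then with LY-364947, CHIR-99021 gave 6 and 4 of the 60 lower (10.0% and 6.67%, all genes 8.08% and 7.69%), which is close to the background. Cyp7b1, an oxysterol hydroxylase of bile acid synthesis, had 4.98 and 6.07 CPM in MEFs, 180.5 and 174 after carbidopa, 175 and 159.8 after LY-364947 and 50.3 and 55.4 after CHIR-99021. It was 31.9-fold, 30.2-fold and 9.52-fold higher than in MEFs with carbidopa (5.00 ± 0.14, adjusted p = 4.09e-09), LY-364947 (4.92 ± 0.14, adjusted p = 4.54e-09) and CHIR-99021 (3.25 ± 0.14, adjusted p = 5.56e-08), and lower with CHIR-99021 than with carbidopa (-1.75 ± 0.11, adjusted p = 1.17e-05). Cyp27a1, another sterol hydroxylase, rose from 3.42 and 2.32 CPM to 12.7 and 8.58 after carbidopa, 8.81 and 9.96 after LY-364947 and 6.45 and 7.08 after CHIR-99021 (log2 1.90, 1.72 and 1.25). Por, which passes electrons to Cyp51, Sqle and other microsomal oxidases, rose as well, with 87.5 and 83.8 CPM in MEFs, 503 and 353 after carbidopa, 358 and 381 after LY-364947 and 426 and 365 after CHIR-99021 (log2 2.32 ± 0.16, adjusted p = 2.15e-06, 2.11 ± 0.16, adjusted p = 4.23e-06 and 2.21 ± 0.16, adjusted p = 3.03e-06).

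Ch25h, which makes an oxysterol that restrains SREBP processing, fell with all 3 compounds, from 16.3 and 17.9 CPM to 8.003 and 8.49 after carbidopa, 7.75 and 8.36 after LY-364947 and 6.74 and 8.18 after CHIR-99021 (log2 -1.05 ± 0.16, adjusted p = 0.000456, -1.09 ± 0.16, adjusted p = 0.000417 and -1.20 ± 0.16, adjusted p = 0.000208). Mylip, a ubiquitin ligase that liver X receptors induce, fell with all 3 as well (log2 -1.23, -1.37 and -1.23). It had 56.7 and 60.9 CPM in MEFs, 24.9 and 25.1 after carbidopa, 22.7 and 22.8 after LY-364947 and 26.8 and 23.4 after CHIR-99021. Among other such targets, Abca1 was lower (log2 -0.41) and Abcg1 higher (log2 0.33) with CHIR-99021 than in MEFs. The calls of Abca1 and Abcg1 were lost under some omissions of 1 library, as given above. The fatty acid activator Acsl5 and the triglyceride enzyme Dgat1 rose with each compound (log2 1.04, 0.90 and 0.80 for Acsl5, and 1.18, 1.31 and 1.22 for Dgat1, in the order carbidopa, LY-364947, CHIR-99021). Acsl3 and the elongase Elovl7 fell with each (-0.69, -0.74 and -1.04 for Acsl3, and -2.60, -2.59 and -3.38 for Elovl7).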

How the data were processed

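RNA-seq was performed on 8 libraries of 4 groups. Per the labels, the authors mapped reads to mm10 with STAR 2.4.2a, and per their methods counted them per gene with featureCounts. They deposited raw counts, whole numbers without normalization. The annotation, the strand setting and the version of featureCounts are not given in the sources used here, so reads of overlapping or near-identical genes cannot be assigned firmly. The labels name a SMARTER kit and the methods NEBNext. Where nothing says that replicates were separate cultures, p-values measure only the spread between libraries.

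Counts were analysed in R 4.3.3 with edgeR 4.0.16 (TMM, filterByExpr, quasi-likelihood test) in 1 fit over the 8 libraries, with no term but group (15154 genes tested, 30.0% of those listed, coefficient of biological variation 11.0%). P-values were adjusted over all genes tested by the Benjamini-Hochberg method, with a threshold of 0.05. The script was tested on simulated data. RPKM uses exon lengths of GENCODE M21, and exons were compared with all other transcripts in words of 75 bases. Genes given per library are the regulators and those called with an absolute log2 fold change of at least 1, and others were added after their values were seen. Partner genes named are up to 4 rises and 4 falls of smallest adjusted p per comparison with MEFs. The genes and lists were chosen with earlier results of these data known. Alternatives were DESeq2 1.42.0, RLE scaling, no filter, a fit restricted to the groups compared, at least 10 counts per library, a replicate block and omission of each library, plus, chosen after seeing the data, length-adjusted offsets and a minimum absolute log2 fold change of 0.5.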

Additional observations from a re-analysis of the deposited data

How the results depend on the processing

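No called direction of the 99 pairs of gene and comparison reversed under any alternative. Calls lost were 2 with RLE scaling, 4 without a filter, 1 with at least 10 counts in every library, 1 with length-adjusted offsets, 3 with DESeq2 and 12 when only the compared groups were fitted. Genes higher with CHIR-99021 than MEFs numbered 1 with RLE scaling, without a filter, with the replicate block and with DESeq2, and 0 with a log2 fold change of at least 0.5. Without a filter, 2 were higher with CHIR-99021 than carbidopa, and 1 with LY-364947 than carbidopa. With only the compared groups fitted, 5 of the 35 were lower with carbidopa and 13 with LY-364947 than MEFs, and of the partner genes 8 were lower with carbidopa and 13 higher with LY-364947. Length-adjusted offsets gave 11 lower with LY-364947, and the fold minimum gave 4 lower with carbidopa and 2 with LY-364947.

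Leaving out 1 library at a time, with the lone sample assumed to vary like the other groups, gave 4 to 12 genes higher and 1 to 13 lower with carbidopa than MEFs, 2 to 13 lower with LY-364947, 0 to 2 higher and 17 to 20 lower with CHIR-99021. It gave 1 to 4 higher with CHIR-99021 than carbidopa, and 0 to 8 higher and 0 to 3 lower with LY-364947 than carbidopa. Partner genes ranged from 8 to 19 lower with carbidopa, 6 to 13 higher with LY-364947 and 8 to 21 lower with CHIR-99021. The cause of these shifts was not tested.

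Replicate numbers are shared between groups only as numbers: the correlation of replicate differences between groups ran from -0.161 to 0.128. A replicate block ended 4 calls (Fdft1 and Sqle with carbidopa, Sqle with LY-364947 and Abcg1 with CHIR-99021, each relative to MEFs) and gave 18 genes lower with CHIR-99021 than MEFs, as without it. With 2 libraries per group, the spread of a group rests on 1 difference. The least counted of the 35 genes, Pmvk and Tm7sf2, held 89 and 116 counts in MEF replicate 1.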
